A study of Mus musculus with 6 samples.

Results

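The genes encoding the proteins of the cytosolic ribosome were examined in tibial joint tissue of wild-type and Frzb -/- mice. A gene was included when its symbol was Rpl or Rps followed by a number, with an optional final letter, l or x, or when it was Rplp0, Rplp1, Rplp2 or Rpsa. Kinases named Rps6k, pseudogenes and mitochondrial ribosomal protein genes were not included. Only probe sets that the array annotation gives to a single gene were used, and each gene was read at its brightest one over the 6 arrays. This gave 45 of the 13817 genes on the array, 24 of the large and 21 of the small subunit, with 93 of its 30618 probe sets. Another 30 ribosomal protein genes, Rpl3, Rpl5, Rplp1, Rps13 and Rps23 among them, had only probe sets shared with pseudogenes, predicted genes or neighbouring genes, and are described apart.

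Each array held RNA from a single joint of 1 male mouse of strain C57Bl/6J, 6 weeks old. The piece taken, cartilage of the tibial plateau with the bone beneath it, was cut off at the growth plate, so that it also held bone marrow. Wild-type mice gave 3 arrays (6-1, 8-1 and 9-1), and 3 were labelled Frzb -/-, from a knockout line back-crossed to the same strain (14, 17 and 6). Frzb encodes a secreted antagonist of WNT signaling, and the comparison asked how its loss changes the transcriptome of cartilage and bone. Of the 3 labelled mice 1 was left out of the original comparison. Its expression values had grouped with those of the wild-type mice, and a second genotyping then found it heterozygous. The number of that mouse was not given. Title 6 was kept apart here, so Frzb -/- means mice 14 and 17 below. The labels do not name title 6 as that mouse, and the choice was made with earlier results of these arrays known.

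Frzb itself was read first. Its brightest probe set had log2 values of 10.02, 10.79 and 10.16 in wild-type mice, 7.02 in mouse 14, 6.42 in mouse 17 and 6.93 in title 6. All 3 labelled arrays were thus far below the wild-type arrays, and title 6 lay between the other 2. The difference between Frzb -/- and wild-type was -3.61 ± 0.27 (SE, 2 against 3 mice, limma, adjusted p = 0.000994). The Frzb level of title 6 therefore did not set it apart from mice 14 and 17.

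The cytosolic ribosome translates messenger RNA into protein. Its small subunit binds the message and reads the code, and its large subunit joins the amino acids and releases the growing chain through a tunnel. The proteins are made in matched amounts, and their messages are among the most abundant of dividing and secreting cells. Many of these messages begin with a C and a run of pyrimidines, the terminal oligopyrimidine tract, through which their translation is tied to growth signals. Red cell precursors of the marrow are known to depend on ribosome supply, since mutations in several of these genes cause Diamond-Blackfan anemia.

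To look for this feature, 30 bases at or near the start site given by RefSeq (mouse assembly GRCm38.p6) are printed for members that the results below turn on. The stretches of Rps25 and Rpl39l end before that site. Capitals mark the longest pyrimidine run within 25 bases of the annotated start, and the text is 5′ to 3′ on the strand of the gene. Rps6, Rps9, Rps26 and Rpl12 were members with a value below wild-type, Rps25 and Rpl39l passed the test in opposite directions, Rpl27a had the longest run among members above wild-type, and Rpl3l had a short one. The stretches lie at chr4:86857349-86857378 (minus strand) for Rps6, chr7:3704024-3704053 (plus) for Rps9, chr10:128626485-128626514 (minus) for Rps26, chr2:32961701-32961730 (plus) for Rpl12, chr9:44407684-44407713 (plus) for Rps25, chr7:109519186-109519215 (plus) for Rpl27a, chr16:10170192-10170221 (plus) for Rpl39l and chr17:24727822-24727851 (plus) for Rpl3l.
Rps6: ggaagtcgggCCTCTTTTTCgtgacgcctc
Rps9: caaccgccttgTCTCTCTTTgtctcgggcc
Rps26: aagccgccggaTCCTCTTTCgagtcttggc
Rpl12: gagcaggatccgTCTTTTCggctttcggct
Rps25: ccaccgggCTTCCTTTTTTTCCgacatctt
Rpl27a: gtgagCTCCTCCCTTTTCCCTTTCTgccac
Rpl39l: acacccactgcCTCTCCCTagctcccaggc
Rpl3l: ctctgtcatttgaCCTCTggtgcctggtgg

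The run began 1 base before the annotated start in Rps6, with a length of 10 bases, and 4 bases before it in Rpl27a, with a length of 20 bases. In Rps25 it was 14 bases long and began 22 bases upstream. In Rpl39l the part within 25 bases of the start was 8 bases long, and the base before it, outside that limit, was also a pyrimidine. In both genes the run ended before the annotated start, so by this annotation it is not part of the message. In Rpl3l, a paralog expressed in striated muscle, the run was only 5 bases long. Windows of 300 bases, 250 before and 50 after the start, were found for 39 of the 45 members, in 47 windows since some genes have several starts. A C followed by at least 4 pyrimidines stood at the first base in 17.0% of the member windows and in 2.51% of all 32851 windows. Within 5 bases of the start the shares were 42.6% and 18.3%, and a pyrimidine run of at least 8 bases within 25 bases of the start was found in 46.8% and 19.7%. Of the other motifs searched on both strands, CCGGAAG, a core that ETS factors bind, was in 42.6% of the member windows and 8.86% of all windows. AAGATGG, a core of YY1 sites whose first letters can overlap the end of CCGGAAG, was in 12.8% and 6.34%, and TATAAA in 10.6% and 13.6%. These are matches of letters and not mapped sites.

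Most ribosomal protein genes had slightly lower values in the Frzb -/- mice. The log2 difference between Frzb -/- and wild-type was below 0 in 40 of 45 members, against 45.4% of all genes, and its median was -0.14 over the members and 0.04 over all genes. A median of -0.14 is a level 9.44% lower. In 29 of 45 members (64.4%) both Frzb -/- arrays were below every wild-type array, where 28.1% of all genes had that order, and in 4 members both were above, against 31.0%. The wild-type arrays of the members also lay closer to each other than those of other genes, with a median SD of 0.06 against 0.13. None of these differences reached the size the study required.

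At adjusted p under 0.01 and an absolute log2 difference above 1, the rule of the study, limma called 0 of 45 members lower and 0 higher, where 6.02% of all genes were called lower and 3.03% higher. At adjusted p under 0.05 without a minimum size, 1 member was lower, against 15.3% of all genes, and 3 were higher, against 13.8%. At unadjusted p under 0.05, 10 members were lower and 3 higher, against 20.6% and 21.0% of all genes. At adjusted p under 0.05 the shares of members past the test (2.22% lower and 6.67% higher) were thus below the background. At unadjusted p the share of members lower, 22.2%, was near it. For 42 of 45 members the 95% confidence interval of the difference lay wholly between -1 and 1. The number of arrays, 2 against 3, limits the precision, with a median SE of 0.12 over the members.

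**Figure D1:**
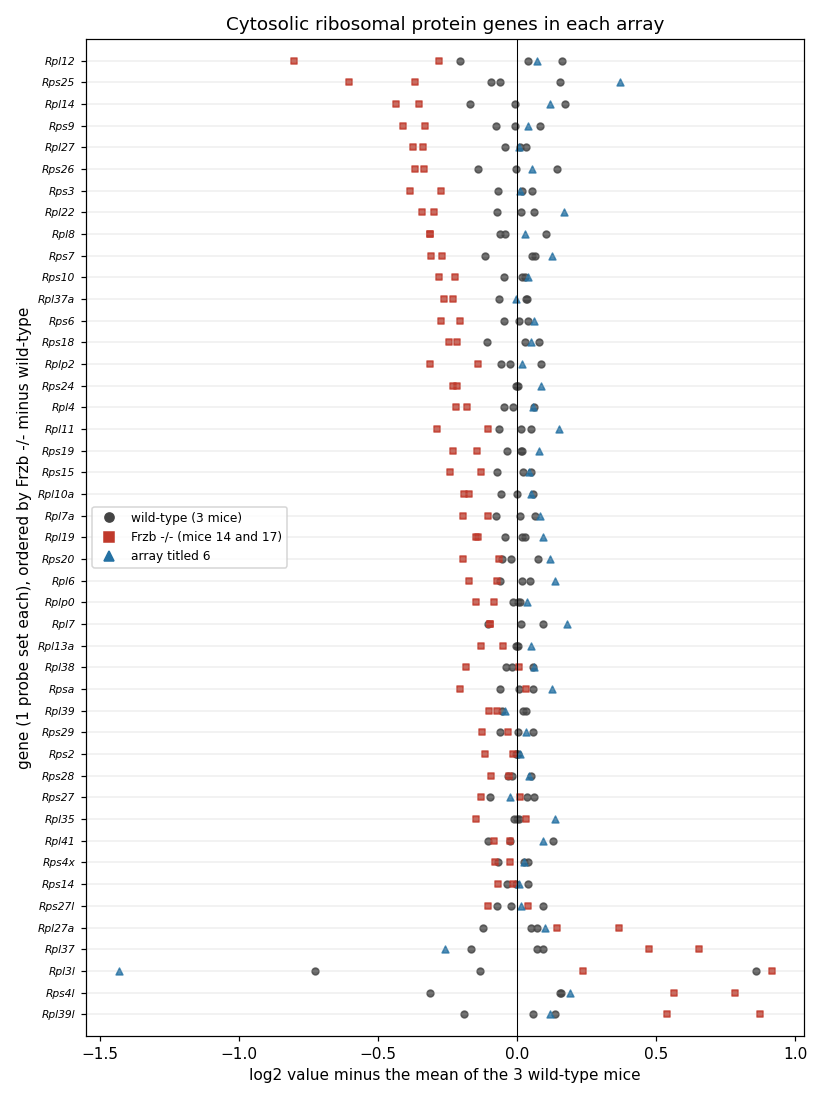
Log2 value of each of the 45 ribosomal protein genes (vertical axis) in each array, minus the mean of the 3 wild-type mice (horizontal axis), with genes ordered by the difference between Frzb -/- and wild-type. Most red squares (mice 14 and 17) lie left of the grey wild-type points, while Rpl27a, Rpl37, Rps4l and Rpl39l lie to the right and the blue triangles (title 6) sit with or to the right of wild-type except at Rpl37 and Rpl3l, where title 6 lies below every wild-type array.

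The shift was seen in both Frzb -/- arrays. The median deviation of the members from their wild-type mean was -0.14 in mouse 14 and -0.18 in mouse 17. Among the wild-type mice it was -0.05 in 6-1, 0.01 in 8-1 and 0.03 in 9-1, and in title 6 it was 0.05. No wild-type array was as low as either Frzb -/- array, and mouse 17 was below mouse 14 in 32 of 45 members. The deviations of all genes had medians of 0.03 and 0.04 in mice 14 and 17.

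Brightness separated the members. In 33 members the mean log2 value was above 12, and all 33 had a difference below 0, with a median of -0.18. In 24 of them both Frzb -/- arrays were below every wild-type array, against 28.1% of all genes. None of the 33 passed at adjusted p under 0.05, where 15.3% of all genes were lower and 13.8% higher. At unadjusted p under 0.05, 7 of the 33 were lower, a share near the 20.6% of all genes. The other 12 members were dimmer, 7 of them below 0, and held all 4 that passed the test (Rps25, Rpl37, Rps4l and Rpl39l). The brighter members lay near the top of the scale of these arrays, with 31 of 45 members above the 99th percentile of all probe sets. That top was itself lower in the Frzb -/- arrays. The highest value of any probe set was 14.96, 14.93 and 14.95 in wild-type mice 6-1, 8-1 and 9-1. It was 14.87 and 14.79 in mice 14 and 17, and 14.95 in title 6. Whether the members differ from other probe sets of the same brightness was not tested.

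Among the proteins of the small subunit, 20 of 21 had a difference below 0, with a median of -0.19. Rps25, a protein of the small subunit head, was the only member that fell at adjusted p under 0.05. It had log2 values of 8.54, 8.51 and 8.75 in wild-type mice, 8.23 and 8.00 in mice 14 and 17, and 8.97 in title 6. Both Frzb -/- arrays were below all wild-type arrays and title 6 was above them. The difference was -0.49 ± 0.14 (SE, adjusted p = 0.0435), and leaving out any 1 of the 5 arrays ended the call, with differences from -0.37 (without mouse 17, adjusted p = 0.198) to -0.60 (without mouse 14, adjusted p = 0.0545). With all 3 labelled arrays it was -0.20 (adjusted p = 0.739).

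Rps9, a protein of the small subunit body, had values of 13.16, 13.31 and 13.22 in wild-type mice, and 12.82 and 12.90 in mice 14 and 17. The groups did not overlap, and the difference was -0.37 ± 0.12 (SE, adjusted p = 0.0584). Rps26, which lies near the exit of the messenger RNA, was 13.37, 13.50 and 13.65 in wild-type mice against 13.14 and 13.17, a difference of -0.35 ± 0.13 (adjusted p = 0.0923). Rps3, at the entry of the messenger RNA, was 13.44, 13.53 and 13.57 against 13.24 and 13.13, a difference of -0.33 ± 0.12 (adjusted p = 0.0814). The Frzb -/- arrays were below all wild-type arrays in each of these genes, though none passed the test. Rps9, Rps26 and Rps3 passed it when the spread was moderated by level and robustly (adjusted p = 0.0254, 0.0483 and 0.0339).

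Rps6, the substrate of the S6 kinases downstream of mTOR, had a difference of -0.24 ± 0.11 (SE, adjusted p = 0.167), with wild-type values from 9.24 to 9.32 and Frzb -/- values of 9.08 and 9.01. Rps19, the gene most often mutated in Diamond-Blackfan anemia, had a difference of -0.19 ± 0.11 (adjusted p = 0.267), also without overlap. Rps2 (-0.07) lay just below the wild-type arrays. Rpsa, which is also known as a laminin receptor, had a difference of -0.09 ± 0.13 and overlapping groups, and its sign rested on mouse 17, since it was 0.03 without that mouse. Rps14, of the platform of the small subunit, was at -0.04 ± 0.11 with overlapping groups. The proteins fixed as lining the messenger RNA channel and decoding site, Rps2, Rps3 and Rps15, were read in 3 of 4 cases and all 3 had a difference below 0, with none past the test.

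In the large subunit 20 of 24 genes had a difference below 0, with a median of -0.13. Rpl12, at the base of the stalk that recruits elongation factors, had the lowest difference of all members. It had log2 values of 8.04, 7.68 and 7.92 in wild-type mice, 7.60 in mouse 14, 7.08 in mouse 17 and 7.95 in title 6. Mouse 14 lay close under the lowest wild-type array and mouse 17 well under it. The difference was -0.54 ± 0.19 (SE, adjusted p = 0.0806).

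The other stalk proteins read here, Rplp0 and Rplp2, had differences of -0.11 ± 0.11 and -0.23 ± 0.12, and in both the Frzb -/- arrays were below all wild-type arrays. None of the 3 stalk genes read, of 4 in the list, passed at adjusted p under 0.05. Rpl27, a large subunit protein linked to Diamond-Blackfan anemia, had 12.55, 12.60 and 12.62 in wild-type mice against 12.25 and 12.22, a difference of -0.36 ± 0.11 (adjusted p = 0.0555). Rpl14 was 7.71, 7.87 and 8.05 against 7.52 and 7.44, a difference of -0.39 ± 0.14 (adjusted p = 0.0801). Both genes had groups that did not overlap and differences larger than the wild-type SD (0.04 and 0.17).

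Rpl22, which is dispensable for general translation in mice but needed for T cell development, was 13.08, 13.17 and 13.22 in wild-type mice against 12.86 and 12.82. Its difference of -0.32 ± 0.12 (SE) had an adjusted p of 0.0846, and 0.0372 with trended and robust moderation. Rpl4, whose loop reaches into the exit tunnel, had a difference of -0.20 ± 0.11 (adjusted p = 0.242). All 5 exit tunnel proteins read, of 9 in the list, had differences below 0. In 4 of the 5 both Frzb -/- arrays were below every wild-type array, against 64.4% of all members and 28.1% of all genes. Rpl11, which with Rpl5 and the 5S ribosomal RNA forms the particle that binds Mdm2, had values of 12.40, 12.43 and 12.31 against 12.09 and 12.28, and a difference of -0.20 ± 0.12 (adjusted p = 0.283).

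Members linked to Diamond-Blackfan anemia were read for 12 of 20 genes. All 12 had a difference below 0, with a median of -0.21, and none passed at adjusted p under 0.05. In 8 of the 12 both Frzb -/- arrays were below every wild-type array, against 64.4% of all members and 28.1% of all genes. The median of the 12 was near that of the bright members as a whole. Fau, whose product is processed into the small subunit protein eS30 and whose symbol falls outside the naming rule, had 12.97, 12.96 and 12.83 in wild-type mice against 12.65 and 12.59, a difference of -0.30 ± 0.12 (adjusted p = 0.105). It was the only 1 of the 3 ribosome constituents with other names that had a probe set of its own. Rps3a1, also outside the rule, had a difference of -0.20 ± 0.13.

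Paralogs, which can replace the usual protein in some tissues, held the highest differences. Rpl39l, the paralog of Rpl39 known from testis, had log2 values of 9.47, 9.39 and 9.14 in wild-type mice, 10.20 and 9.87 in mice 14 and 17, and 9.45 in title 6. Both Frzb -/- arrays were above all others and title 6 lay within the wild-type range. The gene rose by 0.71 ± 0.16 (SE, adjusted p = 0.0197), a level 63.1% higher. It lost the call without mouse 14 (0.54, adjusted p = 0.0898), without wild-type 8-1 (0.73, adjusted p = 0.0611) and with all 3 labelled arrays (0.51, adjusted p = 0.428). Rpl39 had a dim probe set of its own (wild-type mean 6.71) with a difference of -0.09 ± 0.11. A brighter probe set of Rpl39 shared with another gene (wild-type mean 14.24) had -0.17 ± 0.12 (adjusted p = 0.366), with overlapping groups.

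Rps4l, a paralog of the X-linked Rps4x, was 9.02, 9.03 and 8.55 in wild-type mice, 9.43 and 9.65 in mice 14 and 17, and 9.06 in title 6. The groups did not overlap, with the low wild-type value of 9-1 widening the gap. It rose by 0.67 ± 0.18 (SE, adjusted p = 0.0346), and of the 5 fits with 1 array left out only that without wild-type 6-1 kept the call (adjusted p = 0.0474). The adjusted p was 0.0677 without mouse 14, 0.171 without mouse 17, 0.0652 without 8-1, 0.0549 without 9-1 and 0.428 with all 3 labelled arrays. Rps4x itself had a difference of -0.05 ± 0.11 and overlapping groups.

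Rpl3l, the striated muscle paralog of Rpl3, had the widest spread of the members. It was 11.01, 10.02 and 9.43 in wild-type mice 6-1, 8-1 and 9-1, 10.39 and 11.07 in mice 14 and 17, and 8.72 in title 6. The groups overlapped, and the difference of 0.58 ± 0.44 (SE, adjusted p = 0.379) was smaller than the wild-type SD of 0.80. With all 3 labelled arrays it turned to -0.09. The 6 skeletal muscle markers (Acta1, Myh1, Myh4, Ckm, Tnnt3 and Mb) had log2 summed levels of 16.78, 16.44 and 16.22 in wild-type mice 6-1, 8-1 and 9-1, 16.49 and 16.82 in mice 14 and 17, and 15.69 in title 6. The 6 arrays had the same order for these markers and for Rpl3l, and the part of muscle tissue in the spread of Rpl3l was not tested.

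Rps27l, a target of p53, had a difference of -0.03 ± 0.12 with overlapping groups. Its partner Rps27 had one of -0.06 ± 0.12 at a dim probe set of its own (wild-type mean 6.32). A brighter probe set of Rps27 shared with another gene (wild-type mean 13.43) had -0.29 ± 0.12 (adjusted p = 0.138), with groups that did not overlap. The paralogs Rpl22l1 and Rpl7l1, whose symbols are outside the rule, had differences of -0.37 ± 0.14 (SE, adjusted p = 0.0941) and -0.07 ± 0.13. Rpl22l1, for which Rpl22 is a known repressor, had 12.12, 12.38 and 12.43 in wild-type mice against 11.99 and 11.89, so that its groups did not overlap, as those of Rpl22 did not. In all, 6 of 8 paralogs had a probe set of their own, and 2 of these passed at adjusted p under 0.05, both higher. That count is too small to set apart from the 13.8% of all genes that were higher. Over the 41 members other than Rpl3l, Rpl39l, Rps4l and Rps27l the median was -0.18, with 39 below 0.

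**Figure D2:**
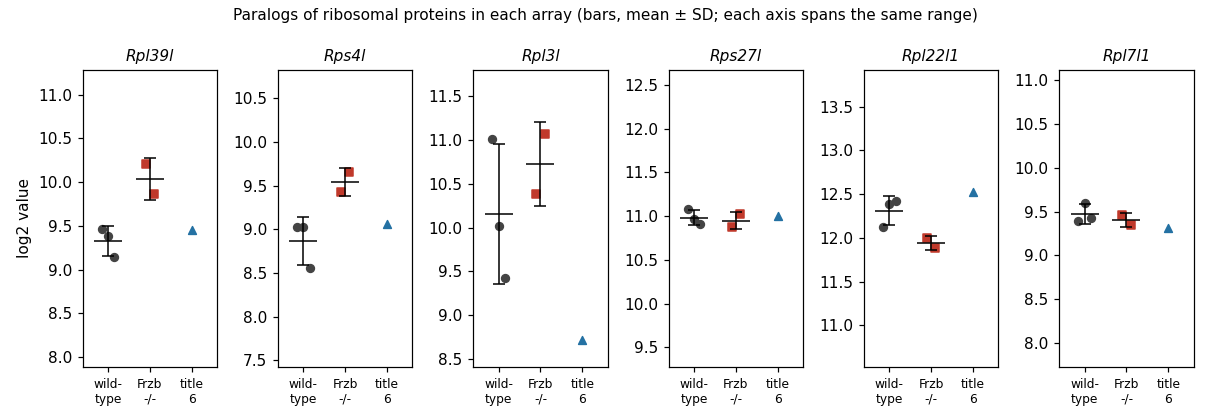
Log2 value (vertical axis, same span in each panel) of 6 paralogs of ribosomal proteins in wild-type mice (grey), Frzb -/- mice 14 and 17 (red) and title 6 (blue), with bars for mean and SD. Rpl39l and Rps4l were higher in both Frzb -/- mice, Rpl3l spread over more than 2 log2 units, and Rpl22l1 was lower without passing the test.

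Of the higher members that are no paralogs, Rpl37 had values of 9.50, 9.73 and 9.75 in wild-type mice, 10.31 and 10.13 in mice 14 and 17, and 9.40 in title 6. The groups did not overlap and title 6 was the lowest array. The difference was 0.56 ± 0.14 (SE, adjusted p = 0.0251). The call was kept only without wild-type 9-1 (adjusted p = 0.0404). It was lost without mouse 14 (0.104), mouse 17 (0.0572), wild-type 6-1 (0.0605) or 8-1 (0.0701), these values being adjusted p. Rpl27a had a difference of 0.26 ± 0.13 (adjusted p = 0.205), with wild-type values from 9.05 to 9.24 and Frzb -/- values of 9.54 and 9.32.

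Both of these genes had the opposite sign at another probe set. Rpl37 and Rpl27a are each also read by probe sets shared with other annotated genes, and the brightest of these had differences of -0.33 ± 0.12 and -0.12 ± 0.12. Its wild-type mean was 13.58 for Rpl37, where the probe set of the gene alone had 9.66. Such a shared probe set existed for 14 members, with a difference below 0 in 12 of 14 and the opposite sign in 4 (Rpl27a, Rpl37, Rpl37a and Rps19). For Rps25, Rpl12 and Rpl14, which had the lowest differences at dim probe sets of their own, the brightest shared probe sets gave -0.06, -0.05 and -0.04. For Rps6 and Rps7 the values were close, -0.24 against -0.22 and -0.29 against -0.34. Which transcripts each probe set reads was not tested, and the calls of Rps25 and Rpl37 hold for the probe sets given to these genes alone.

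**Figure D3:**
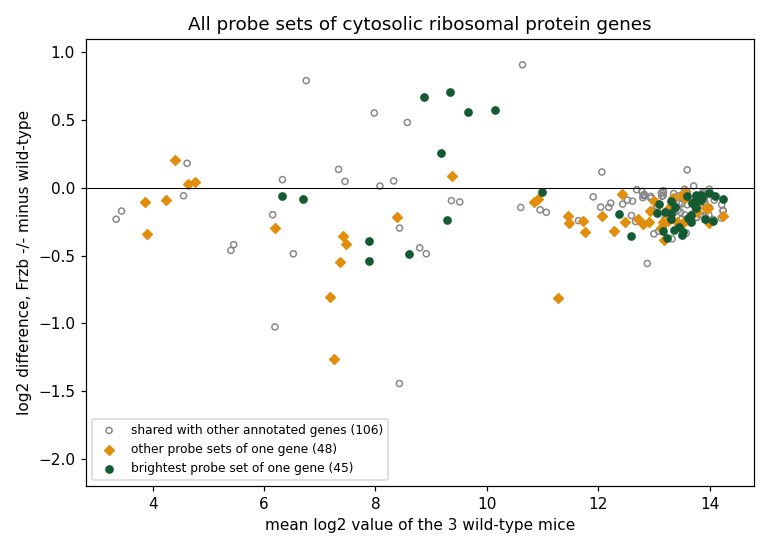
Log2 difference between Frzb -/- and wild-type (vertical axis) against the wild-type mean (horizontal axis) for the 45 brightest probe sets of a single ribosomal protein gene, the 48 others of these genes and the 106 shared with other annotated genes. Most bright probe sets on the right lie in a band just below 0, with a few shared ones above 0 or further below it, and most of the large differences of both signs lie at dimmer probe sets.

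Over all 93 probe sets of the members, 84 had a difference below 0, and 6 were lower and 3 higher at adjusted p under 0.05. These are 6.45% and 3.23%, where 15.3% of all genes, each at its brightest probe set, were lower and 13.8% higher. Of 21 genes with several probe sets, 17 had all of them below 0 and 4 had both signs (Rpl22, Rpl35, Rps20 and Rps6), with no gene called both ways. In 14 of the 21 genes the lowest difference was at a probe set dimmer than the brightest. With several probe sets per gene such a count is common without any tie to brightness, so nothing is drawn from it. Rpl13a ranged from -0.09 to -0.81 and Rpl41, the shortest ribosomal protein, from -0.06 to -0.80, with the brightest probe set at the end nearest 0 in both. The probe set of Rpl41 with the lowest difference had 7.27, 7.11 and 7.17 in wild-type mice against 6.54 and 6.22, and passed the test (adjusted p = 0.00756).

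Rps9 also had its lowest difference at its dimmest probe set. This probe set probe set was 7.28, 7.31 and 7.15 in wild-type mice, 6.62 in mouse 14 and 5.35 in mouse 17, a difference of -1.26 ± 0.34 (SE, adjusted p = 0.0331). Mouse 17 lay further below the wild-type arrays than mouse 14. The other 2 probe sets of the gene gave -0.37 and -0.25. The choice of probe set therefore moved the log2 difference of Rps9 between -0.25 and -1.26. It moved those of Rpl13a and Rpl41 over the ranges given above, and changed the sign in none of these 3 genes.

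The 106 shared probe sets had the same direction on the whole, with 93 below 0 and a median of -0.13. By the rule of the study 1 was lower and 0 were higher, against 6.02% and 3.03% of all genes. At adjusted p under 0.05, 6 were lower and 4 higher (5.66% and 3.77%), against 15.3% and 13.8% of all genes. The 1 called by the rule of the study is given to Rpl3, a core protein near the peptidyl transferase center. It had 8.66, 8.21 and 8.43 in wild-type mice against 7.35 and 6.62 (-1.44 ± 0.24), while a brighter probe set shared by Rpl3 had -0.12. Rpl5, the partner of Rpl11 in the 5S particle, had differences of 0.01, 0.48 and 0.55 at its shared probe sets, of which the latter 2 passed at adjusted p under 0.05 (0.0248 and 0.0187). Rplp1, of the stalk, was at -0.09.

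Other genes of translation were read from lists of their own, and by the rule of the study none of their genes was called in either direction. Of 28 initiation factor genes 4 were lower and 0 higher at adjusted p under 0.05, a share of 14.3% near the background of 15.3%, and the median was -0.15. Pabpc1, the poly(A) binding protein, had 13.48, 13.56 and 13.70 in wild-type mice against 13.04 and 12.84. It fell by 0.64 on the log2 scale (SE 0.13, adjusted p = 0.0146). Eif5, which helps to select the start codon, fell by 0.69 (adjusted p = 0.0122), Eif2s3x by 0.65 and Eif1ax by 0.40. The fall of Eif2s3x was seen at its brightest probe set only, since another gave 0.06. With 1 array left out, Pabpc1 lost the call without mouse 17 or wild-type 8-1 (adjusted p = 0.0790 and 0.0554), and Eif5 without mouse 14 or wild-type 8-1 (0.0510 and 0.0543).

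None of the 5 elongation factor genes passed, with a median of -0.14. Eef1a1, which carries aminoacyl-tRNA to the ribosome, had wild-type values from 14.10 to 14.23 and Frzb -/- values of 14.20 and 14.17, a difference of 0.00 ± 0.12. Eif5a had -0.24 ± 0.11 (adjusted p = 0.158) with groups that did not overlap. Eef2, which moves the ribosome along the message, was at -0.07 with overlapping groups.

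Genes that build ribosomes were called lower at a share near that of all genes. Of 67 ribosome biogenesis genes 13 were lower at adjusted p under 0.05, or 19.4%, against 15.3% of all genes. At the same threshold 0 were higher, against 13.8% of all genes, and the median was -0.18 with 50 below 0. Fbl, the methyltransferase of the box C/D particles, had 11.18, 11.26 and 11.38 in wild-type mice, 10.51 and 10.50 in mice 14 and 17 and 11.29 in title 6. It fell by 0.77 on the log2 scale (SE 0.12, adjusted p = 0.00519), and the call held in each of the 5 fits with 1 array left out. Dkc1, the pseudouridine synthase, fell by 0.74 and Ncl, nucleolin, by 0.60, and Nop56, Nop58, Rrs1, Rpf2, Mdn1, Utp18, Heatr1, Noc2l, Emg1 and Ddx21 made up the 13. Dkc1 lost the call without mouse 14 or wild-type 8-1 (adjusted p = 0.0645 and 0.0552), and Ncl kept it only without wild-type 6-1.

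Genes of RNA polymerase I, which transcribes the ribosomal RNA, had 2 lower and 0 higher of 14, Twistnb (-0.45) and Ubtf (-0.43), a share near the background of 15.3%, with a median of -0.14. All 8 snoRNA host genes had a difference below 0, with a median of -0.49. Of the 8, 2 passed the test, a count too small to set apart from the background of 15.3%. Gas5 had 11.28, 11.39 and 11.36 in wild-type mice, 10.74 and 10.66 in mice 14 and 17 and 11.59 in title 6, and fell by 0.64 (SE 0.11, adjusted p = 0.00830). The call of Gas5 held in each of the 5 fits with 1 array left out. Snhg8 fell by 0.67 (adjusted p = 0.0370), but its difference was -0.40 (adjusted p = 0.168) without mouse 17, and the call was kept only without mouse 14. Twistnb and Ubtf lost the call in each of the 5 fits.

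Of 15 genes that control translation 3 were lower, against 15.3% of all genes, and 0 higher, with a median of -0.09. Myc, a transcription factor that drives ribosome production, had 8.54, 8.61 and 8.69 in wild-type mice, 7.90 and 7.74 in mice 14 and 17 and 8.82 in title 6. It fell by 0.79 (SE 0.12, adjusted p = 0.00490) and held in each of the 5 fits with 1 array left out. Eif4ebp2, a repressor of cap-dependent initiation, fell by 0.63, a call lost without mouse 17 or wild-type 8-1 (adjusted p = 0.104 and 0.0587), and Larp1b by 0.45, while Eif4ebp1 had a difference of 0.35 ± 0.12 (adjusted p = 0.0697).

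The p53 response, which free 5S particle proteins are known to trigger, had 9 genes read, with 1 lower and 1 higher, against 15.3% and 13.8% of all genes, and a median of 0.24. Mdm4, an inhibitor of p53, fell by 0.95 (SE 0.23, adjusted p = 0.0256) and Zmat3, a p53 target, rose by 0.54 (SE 0.13, adjusted p = 0.0224). Mdm4 had -0.55 (adjusted p = 0.0754) without mouse 17 and kept the call only without mouse 14, and Zmat3 kept it only without wild-type 6-1. Cdkn1a had 0.30 ± 0.20 (adjusted p = 0.308) with overlapping groups, and Ccng1 had 0.24 ± 0.21, which turned to -0.08 with all 3 labelled arrays. The list thus held genes with both signs.

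**Figure D4:**
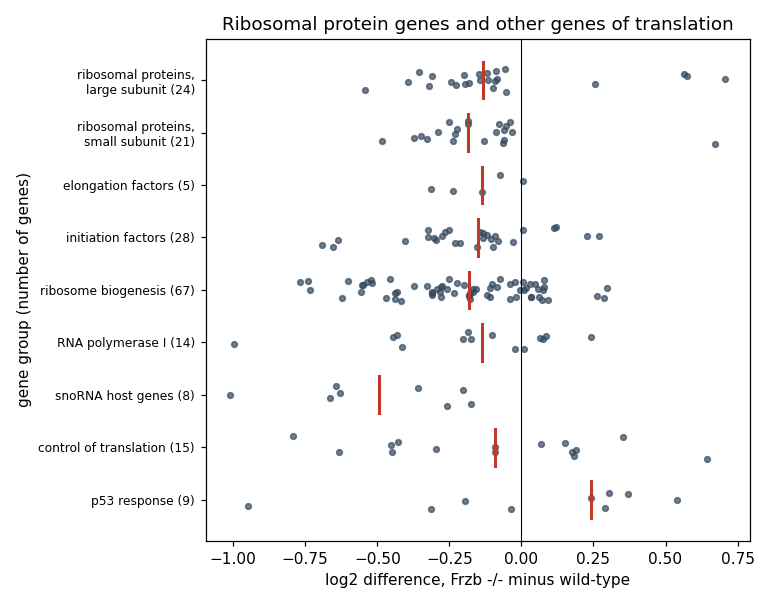
Log2 difference between Frzb -/- and wild-type (horizontal axis) for each gene (points) of the ribosomal proteins and of 7 other gene groups (vertical axis), with red lines at the medians. The medians of most groups lie between -0.09 and -0.19, the snoRNA host genes lie at -0.49 and the p53 response at 0.24.

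The proteins of the mitochondrial ribosome, which is encoded by other genes, were read beside the cytosolic ones. Of 76 genes 38 had a difference below 0, with a median of -0.00 and quartiles of -0.10 and 0.09. At adjusted p under 0.05, 1 was lower and 0 higher, against 15.3% and 13.8% of all genes. The Frzb -/- arrays were below every wild-type array in 13 genes, or 17.1%, against 28.1% of all genes, and above every wild-type array in 3, against 31.0%. In the cytosolic members these quartiles were -0.25 and -0.06.

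In title 6 the ribosomal protein genes were not low. Its value was above the wild-type mean in 40 of 45 members and above every wild-type array in 21, where 27.3% of all genes had that order, and it was below every wild-type array in 2 (Rpl37 and Rpl3l), against 27.6%. It was above both Frzb -/- arrays in 38 of the 41 members that are no paralogs. The share of all genes with this last order was not counted, so whether 38 of 41 is unusual is not known. The test of title 6 against wild-type called 0 of 45 members at adjusted p under 0.05 (1 at unadjusted p under 0.05), and 0.0217% of all genes. With title 6 counted as Frzb -/-, the median of the members was -0.07 and no member passed, while 1 of all genes was lower and 2 were higher. In the same array 49 of 76 mitochondrial ribosomal protein genes were below every wild-type array.

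Most markers of marrow cells were also lower in the Frzb -/- mice. All 7 erythroid markers with a probe set of their own, of 12 listed, were called lower by the rule of the study, and their log2 summed level was 14.23 to 14.69 in wild-type mice, 11.48 to 11.99 in Frzb -/- mice and 14.63 in title 6. All 12 neutrophil markers were lower (16.58 to 17.01 against 14.67 to 15.14, and 16.77 in title 6). All 13 markers of dividing cells that were read, of 14, were lower too (14.97 to 15.28 against 12.95 to 13.46, and 15.26 in title 6). Of the other marrow cells, 5 of 9 B cell, 3 of 4 megakaryocyte and 2 of 4 T and NK cell markers were lower. The summed level of the 45 ribosomal protein genes was 18.62 to 18.69, 18.48 to 18.53 and 18.72, a far smaller step, and the part of these cells in it was not tested.

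The markers of cartilage and bone did not pass in either direction. For 9 chondrocyte, 4 osteoblast and osteocyte and 6 osteoclast markers the rule of the study called 0 lower and 0 higher, with 1 chondrocyte marker lower and 1 higher at unadjusted p under 0.05, and their medians were -0.01, 0.03 and 0.11. All 9 chondrocyte markers were present, with log2 summed levels of 16.05 to 16.46 in wild-type mice and 16.13 to 16.31 in Frzb -/- mice. Only 4 of 7 listed osteoblast and osteocyte markers were read. Their summed level was 15.24 to 15.36 in wild-type mice and 15.38 to 15.52 in Frzb -/- mice, without overlap, and 15.49 in title 6. Of 10 markers of fibroblasts and vessels 4 were higher (15.15 to 15.37 against 16.11 to 16.15). None of the 6 skeletal muscle markers passed. In RNA from a whole tissue piece, fewer cells of a type and less RNA per cell cannot be told apart.

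**Figure D5:**
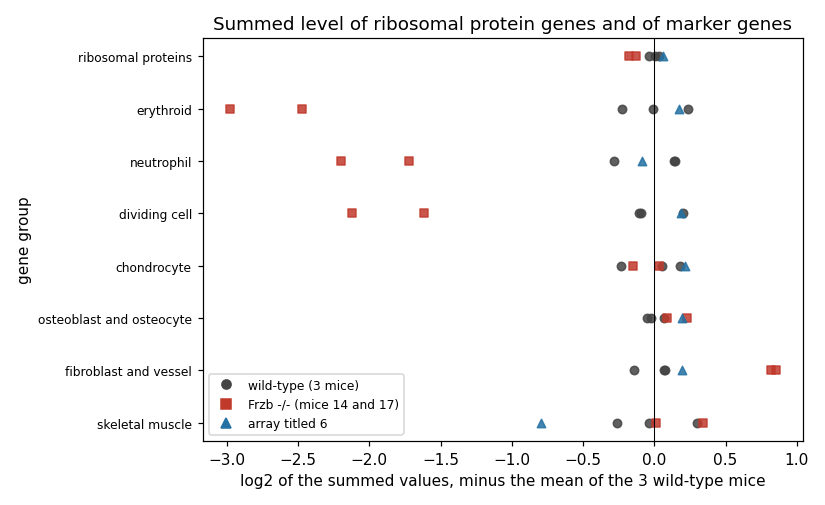
Log2 of the summed values of the 45 ribosomal protein genes and of 7 marker groups (vertical axis) in each array, minus the mean of the 3 wild-type mice (horizontal axis). Mice 14 and 17 (red) were lower by more than 1 log2 unit for erythroid, neutrophil and dividing cell markers and by under 0.3 for ribosomal proteins, while title 6 (blue) lay near wild-type in all groups except muscle.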

How the data were processed

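RNA of 6 tibial pieces was measured on Affymetrix mouse arrays, 1 mouse each. The authors deposited 1 table of log2 expression values, made by RMA (background correction, quantile normalization and a robust summary of each probe set), with the package affy 1.20.0 named in the submitters' processing notes. Quantile normalization gives each array nearly the same distribution, so differences are relative to it. Median log2 values per array were 7.32 to 7.45. Arrays have no read depth, and their number limits the precision.

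The 30618 probe sets were matched to the annotation of the array: 25090 had 1 gene, 677 several and 4851 none. The fit (limma 3.58.1, R 4.3.3, lmFit and eBayes, two-sided) had a mean for wild-type, for Frzb -/- and for title 6, with 3 residual and 3.90 prior degrees of freedom, and Benjamini-Hochberg adjustment over all probe sets. It was tested on simulated data. Calls used the rule of the study (adjusted p under 0.01, absolute log2 difference above 1) and adjusted p under 0.05. Replicates are separate mice. Tables were handled with pandas 2.3.3 and numpy 2.4.6 in Python 3.11.15 and drawn with matplotlib 3.10.9.

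The members and lists were chosen with earlier results of these data known. Named genes are members that passed, members with a fixed role, paralogs with partners, Frzb, and up to 4 genes of each other list (the largest changes that passed and the brightest). Members at either end of the order and the other genes listed as called were chosen after the values were seen. So were shared probe sets as an alternative, the run of at least 8 bases, and the bases shown near each start (centred on the pyrimidine run). Start sites are those of RefSeq, GRCm38.p6. Alternatives covered the arrays used, each array left out, the probe set per gene, dim probe sets, the normalization and the moderation.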

Additional observations from a re-analysis of the deposited data

How the results depend on the processing

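By the rule of the study 0 members were lower and 0 higher under every alternative run. The count lower at adjusted p under 0.05 was 1. It was 0 with all 3 labelled arrays, with arrays centred on their medians, with cyclic loess, without moderation of the spread and with shared probe sets included, 3 with only probe sets above the median, 4 with the mean of the probe sets of a gene, 4 with the probe set suffix least open to cross-hybridisation, 7 with trended and robust moderation, and 0 to 1 with 1 array left out. The count higher was 3, and 0 with all 3 labelled arrays or without moderation, with a range of 0 to 2 with 1 array left out (0 without mouse 14 or wild-type 8-1, 1 without mouse 17). Without moderation 0 of all genes passed either. The median of the members was -0.14. It was -0.0711 with all 3 labelled arrays and -0.0942 after centring, which moved the median of all genes from 0.04 to 0.09, and lay between -0.18 and -0.12 with 1 array left out. Signs turned for Ccng1 (-0.0769) and Rpl3l (-0.0933) with all 3 labelled arrays, for Eef1a1 with array weights (-0.0176) and cyclic loess (-0.00), for Rps14 (0.0088) and Rps27l (0.0153) after centring, for Eif2s3x (0.0585) by suffix, and for Rpl27a (-0.12) and Rpl37 (-0.33) with shared probe sets. With 1 array left out, Eef1a1 ranged from -0.0362 to 0.0289, Rps27 from -0.1293 to 0.0092, Rps27l from -0.1057 to 0.0387 and Rpsa from -0.2065 to 0.0315. Over the named genes and all alternatives, 680 values kept direction and call, 97 lost the call, 16 gained it and 15 turned. The cause was not tested. No paired analysis was possible because the groups share no replicate numbers. With 2 against 3 arrays the median SE of a member was 0.12, which limits how small a difference could pass.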
